A study of Mus musculus with 12 samples.

Results

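Lymph node transfer with ABTAA was set against lymphedema alone, across all genes, in mouse hindlimb tissue. VtA is the group that had lymph node transfer with ABTAA treatment (VtA1 to VtA4). LE is the group with lymphedema only (LE1 to LE4). These 8 libraries were chosen by their group labels from the 12 of the study. The other 4, from lymph node transfer without the antibody, enter the expression filter, the normalization, the estimate of the spread and the principal components. All 12 are whole hindlimb tissue from the mouse lymphedema model, flash frozen and read as polyadenylated RNA. No strain, age, sex, time after surgery or antibody dose is given in the sources used here. The design has no group with ABTAA and no transfer, so transfer and antibody cannot be told apart within this comparison. The labels do not say that replicates are separate animals, so the p-values rest on a spread between libraries that could be technical.

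Lymphedema is the swelling of a limb whose lymphatic vessels cannot return tissue fluid. It is known for fluid retention, infiltration by T cells and macrophages, deposition of collagen and fat, and thickening of the skin. Tie2, encoded by Tek, is a receptor on blood and lymphatic endothelium. Angiopoietin-1 activates it and tightens vessels, while angiopoietin-2 can block or weakly activate it. The antibody ABTAA binds angiopoietin-2 and turns it into an activator of Tie2.

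Library totals ran from 56042030 to 72540147 counts. LE4 stood apart from LE1 to LE3, and its values are given apart throughout. Basal and cornified keratinocyte genes took 0.0536% to 1.37% of the reads in VtA, against 3.59% to 4.83% in LE1 to LE3 and 0.0331% in LE4. Genes of the fast muscle sarcomere took 18.1% to 22.9% in VtA, against 1.64% to 11.1% in LE1 to LE3 and 23.4% in LE4. LE4 thus had a composition like that of the VtA libraries, low in skin and high in muscle. Muscle markers were abundant in all 8 libraries, whereas the basal keratin Krt5 was near absent in VtA1 (0.378 CPM) and LE4 (1.96 CPM); CPM is the read count scaled to a normalized library size. Principal components were taken over all 12 libraries. On the first, with 58.1% of the variance, VtA1 to VtA4 lay at 220, 117, 8.17 and 59.4, against -134, -156 and -132 for LE1 to LE3 and 237 for LE4. LE1 also differed from its group, with 5.78% of the reads in the listed ribosomal protein genes, against 2.2% in LE2 and 1.90% in LE3, and with 0.433% mitochondrially encoded reads. In bulk tissue, fewer cells of a type and less RNA per cell cannot be told apart, and the part of tissue composition in the results below was not tested beyond the values given beside them.

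With all libraries, edgeR's quasi-likelihood test called 0 of 19740 genes (0.0% called) at a Benjamini-Hochberg adjusted p under 0.05, the threshold for "called" here. The smallest adjusted p was 0.288. At an unadjusted p under 0.05 there were 3256 genes, 600 higher and 2656 lower in VtA. With keratinocyte share as a covariate this balance turned, to 2257 higher and 425 lower, still with 0 genes called. DESeq2 called 843 of 29692 genes (2.84%), 26 higher and 817 lower. Limma-voom with sample weights called 10639 of 19740 genes (53.9%), 5518 higher and 5121 lower. Its weights were 0.104 for LE4 and 0.0983 for LE1, against 1.4 for LE2 and 2.48 for LE3. LE4 and LE1 thus counted for little in that fit. Without LE4, edgeR called 6288 of 20431 genes (30.8%), 2911 higher in VtA (14.2%) and 3377 lower (16.5%). Leaving out VtA1 as well gave 4004 genes (19.7%), of which 2120 were higher (10.4%) and 1884 lower (9.25%). Leaving out LE4 and LE1 gave 6748 genes (32.1%), 3877 higher (18.4%) and 2871 lower (13.6%). Counts of list members called in each of these fits are to be read against these shares. With all libraries the fitted log2 fold change was above 0 in 9009 genes (45.6%) and below 0 in 10731 (54.4%). The median log2 fold change over all genes was -0.109 with all libraries and -0.269 without LE4. No label sets LE4 apart from its group, so the counts without it describe VtA against LE1 to LE3 and not the labelled comparison.

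The position of LE4 was read gene by gene. Each gene called without LE4 that was also tested with all libraries was placed on a scale on which the mean of LE1 to LE3 is 0 and the mean of VtA is 1, in log2(CPM + 0.5). Of the 2898 genes called higher, LE4 lay above every VtA library in 1017 (35.1%), within the VtA range in 1799 (62.1%), and between the groups in 78 (2.69%). In 4 genes (0.138%) it lay with LE1 to LE3. Of the 3263 genes called lower, LE4 lay below every VtA library in 1250 (38.3%), within their range in 1791 (54.9%), between the groups in 129 (3.95%) and with LE1 to LE3 in 93 (2.85%). The median position of LE4 was 1.12 for the higher genes and 1.22 for the lower ones, past the VtA mean in both directions.

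**Figure D1:**
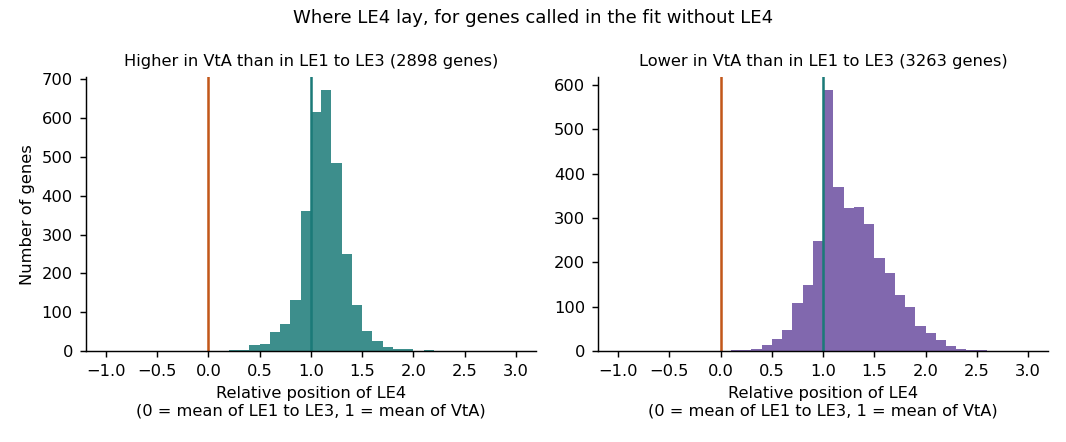
Position of LE4 for each gene called without it (horizontal axis, 0 is the mean of LE1 to LE3 and 1 the mean of VtA, on log2(CPM + 0.5)), with the number of genes on the vertical axis, for genes higher and genes lower in VtA. Both histograms peak just above 1, the VtA mean, with medians of 1.12 and 1.22.

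The 4 higher genes in which LE4 lay with LE1 to LE3 were Clip4, Flvcr1, Armcx4 and A630077J23Rik, named after their values were seen. Clip4, a microtubule-binding linker protein, was at 148, 134, 113 and 112 CPM in VtA, against 26.7, 80.4 and 57.4 CPM in LE1 to LE3 and 79.3 CPM in LE4. Its fitted log2 fold change with all libraries was 1.06 ± 0.36 (SE; edgeR adjusted p = 0.288), and 1.16 ± 0.37 without LE4 (adjusted p = 0.0376). Flvcr1, a heme and choline transporter, was at 14.1, 31.6, 25.5 and 21.8 CPM in VtA, against 2.97, 8.96 and 9.86 CPM in LE1 to LE3 and 8.32 CPM in LE4. In both genes all VtA libraries lay above all LE libraries, LE4 included, though the call of Flvcr1 (adjusted p = 0.0304 without LE4) was lost when LE1 was left out too (adjusted p = 0.0517). Of the 93 lower genes with LE4 on the side of LE1 to LE3, 6 were still called without LE4 and LE1, among them Syn1, Stox1 and Syndig1. Of the 383 distinct genes of the gene lists that were called without LE4, LE4 lay outside the VtA range on the side of LE1 to LE3 in 4, which were Tek, Cry1, Il6 and Ccl3.

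Across all genes tested, 282 had every VtA library above every LE library (1.43%) and 250 had every VtA library below (1.27%), together 532 (2.7%). Leaving LE4 aside, these became 4274 genes (21.7%) and 3959 genes (20.1%). Of the 250 lower genes, 110 were annotated as pseudogenes (44.0%, against 6.3% of all genes tested) and 29 had a symbol starting with Rpl or Rps (11.6%, against 1.11%). LE1 was over 2 times the next LE library in 98 of the 110 and in 28 of the 29. LE1 was the highest LE library in 207 of the 250, and over 2 times the next one in 162 (64.8%, against 16% of all genes tested). Rpl6l, like the gene of ribosomal protein L6, is annotated as a pseudogene. Its level was 5.57, 4.23, 6.48 and 4.41 CPM in VtA, against 56.4, 9.19 and 9.42 CPM in LE1 to LE3 and 6.95 CPM in LE4. Rpl6l was called lower without LE4 (-2.29 ± 0.60, adjusted p = 0.0193), but not without LE4 and LE1 (adjusted p = 0.0744). Counts split between a gene and its near-identical copies are uncertain.

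Among those 8-library differences, several did not rest on LE1. Tcf23, a transcription factor of the basic helix-loop-helix family (chromosome 5, 30968602 to 30988062, GRCm38.p6), had the smallest p of all genes. It was at 0.0504, 0.0766, 0.111 and 0.0687 CPM in VtA, against 2.12, 2.28 and 1.82 CPM in LE1 to LE3 and 0.148 CPM in LE4. Its log2 fold change was -4.32 ± 0.76 (SE; edgeR adjusted p = 0.288), and -4.73 ± 0.47 without LE4 (adjusted p = 0.00607). LE4 lay just above the highest VtA library, at 7 counts against 2, 4, 8 and 4 in VtA1 to VtA4. So few counts do not set LE4 apart from VtA. Spon1, a secreted matrix protein, was at 7.05, 8.60, 8.89 and 11.1 CPM in VtA, against 34.1, 41.6 and 93.5 CPM in LE1 to LE3 and 12 CPM in LE4. Its log2 fold change was -2.35 ± 0.73 with all libraries, and -2.70 ± 0.69 without LE4 (adjusted p = 0.0177). Azin2, a regulator of polyamine synthesis, was at 1.13, 2.11, 2.38 and 1.70 CPM in VtA, against 17.9, 5.03 and 5.96 CPM in LE1 to LE3 and 2.43 CPM in LE4. In all 3 genes the values of the groups did not overlap, for Tcf23 by a few counts only, and LE4 was the LE library nearest to VtA.

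On the higher side, LE1 was the lowest of the 8 libraries, ties included, in 235 of the 282 genes. The share of all genes with LE1 lowest was not counted. Of the 282, 82 were called without LE4 and 79 without LE4 and LE1, against 30.8% and 32.1% of all genes. Casr, the calcium-sensing receptor, was at 21.4, 18.8, 7.96 and 8.22 CPM in VtA, against 0.237, 0.507 and 1.79 CPM in LE1 to LE3 and 7.37 CPM in LE4. Adamtsl3, an extracellular matrix glycoprotein, was at 7.35, 5.88, 4.54 and 8.46 CPM in VtA, against 0.356, 0.669 and 1.2 CPM in LE1 to LE3 and 4.35 CPM in LE4. Frzb, a secreted Wnt inhibitor, was at 12.4, 6.86, 5.90 and 5.70 CPM in VtA, against 0, 1.12 and 0.526 CPM in LE1 to LE3 and 5.53 CPM in LE4. LE4 sat just under the lowest VtA library in each of these genes. Without LE4, Casr (4.01 ± 0.91, adjusted p = 0.0124), Adamtsl3 (3.09 ± 0.47, adjusted p = 0.00607) and Frzb (3.74 ± 1.06, adjusted p = 0.0250) were called higher. Fer1l6, Vwa3a and Igsf1 had the same arrangement and were called as well, the calls of Vwa3a and Igsf1 being lost without VtA1 (adjusted p = 0.0557 and 0.0616), while Kcnn3 (adjusted p = 0.0718) and Btnl9 (adjusted p = 0.126) were not.

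The angiopoietin and Tie genes did not move together. Of 13 tested, 7 were higher and 6 lower in VtA with all libraries, with a median log2 fold change of 0.14 against -0.109 over all genes, and none was called. Tek (chromosome 4, 94739086 to 94874976) was at 44.1, 38.9, 32.7 and 31.9 CPM in VtA, against 6.33, 11.5 and 25.3 CPM in LE1 to LE3 and 30.5 CPM in LE4. The 4 VtA libraries lay above all LE libraries, the lowest of them by a small margin. The log2 fold change of Tek was 1.00 ± 0.44 (SE; edgeR adjusted p = 0.295), and 1.32 ± 0.43 without LE4 (adjusted p = 0.0396). That call was lost when VtA1 was left out as well (adjusted p = 0.0794), and likewise LE1 (adjusted p = 0.0634).

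Of the ligands, Angpt1, the activator of Tie2, was at 21.5, 12, 7.71 and 10.9 CPM in VtA, against 4.09, 3.51 and 8.90 CPM in LE1 to LE3 and 8.66 CPM in LE4. Its log2 fold change was 1.05 ± 0.43 and it was not called without LE4 (adjusted p = 0.0667). Angpt2, whose product ABTAA binds, was at 5.41, 4.71, 3.83 and 3.26 CPM in VtA, against 5.18, 7.18 and 11.6 CPM in LE1 to LE3 and 3.80 CPM in LE4. Its groups overlapped and its log2 fold change was -0.69 ± 0.47, with an adjusted p of 0.152 without LE4. Angpt4, a further Tie2 ligand, was at 0.478, 0.230, 0.445 and 0.464 CPM in VtA, against 12, 1.29 and 1.51 CPM in LE1 to LE3 and 0.127 CPM in LE4. It was called lower without LE4 (-3.62 ± 0.83, adjusted p = 0.0129).

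Of the receptor-side genes, Tie1, the orphan partner of Tie2, was at 40.8, 46.4, 26.2 and 35.5 CPM in VtA, against 32.0, 15.8 and 20.2 CPM in LE1 to LE3 and 38.6 CPM in LE4. It was not called without LE4 (adjusted p = 0.132). Ptprb, the phosphatase VE-PTP that dampens Tie2, was at 116, 87.7, 44.4 and 80.8 CPM in VtA, against 7.22, 18.9 and 30.6 CPM in LE1 to LE3 and 68.4 CPM in LE4. It was called higher without LE4 (2.08 ± 0.55, adjusted p = 0.0199), with LE4 inside the VtA range. Endothelial targets of Foxo1, the factor that Tie2 signalling restrains, were counted as a list of 16 genes. Without LE4, 6 were called higher and 1 lower, against 14.2% and 16.5% of all genes, with a median log2 fold change of 0.52. The member named by the rule, Fbxo32, is also a muscle atrophy ubiquitin ligase. Fbxo32 was at 181 to 523 CPM in VtA, against 36.0 to 64 CPM in LE1 to LE3 and 296 CPM in LE4.

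**Figure D2:**
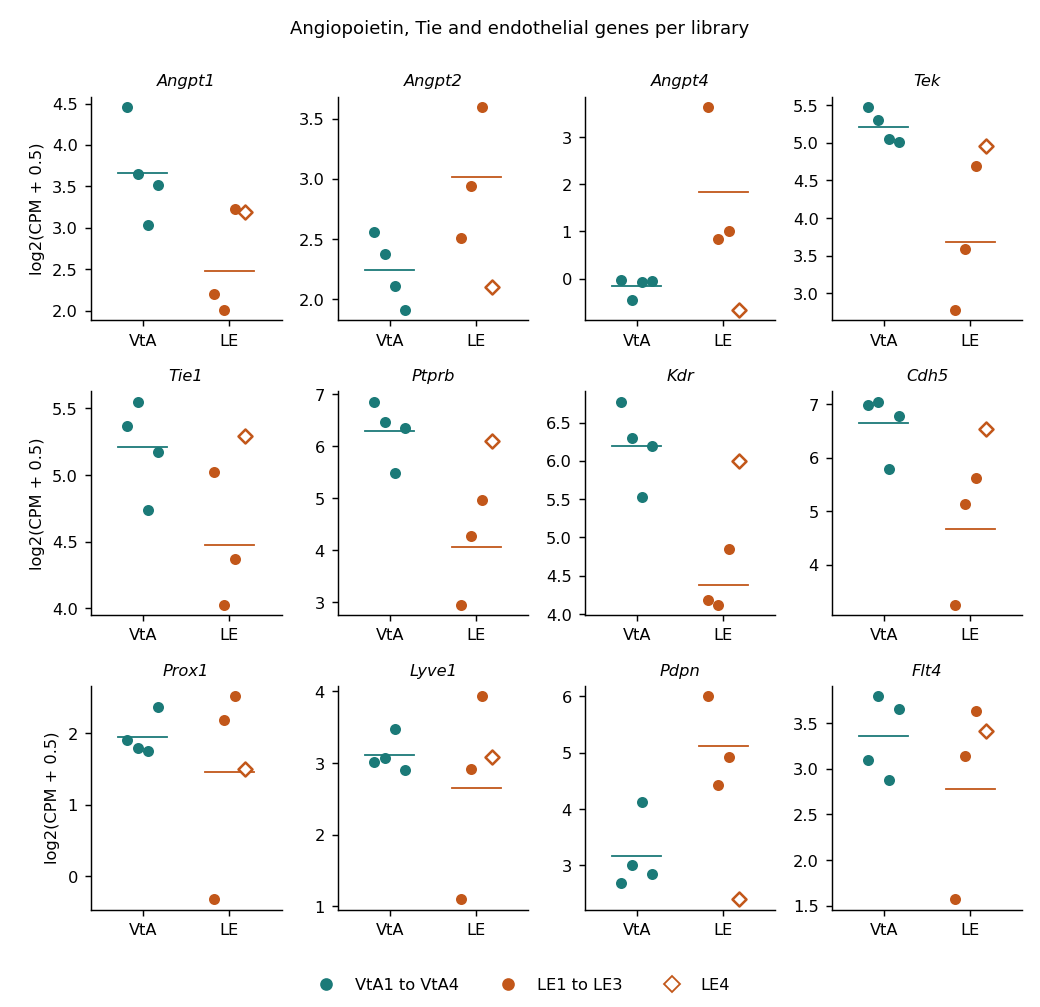
Levels of 12 angiopoietin, Tie and endothelial genes in each library, as log2(CPM + 0.5) on the vertical axis; filled dots are VtA1 to VtA4 and LE1 to LE3, the hollow diamond is LE4, and lines are the means of VtA and of LE1 to LE3. Tek is higher in every VtA library (31.9 to 44.1 CPM) than in any LE library (6.33 to 30.5 CPM), while Prox1, Lyve1 and Flt4 overlap.

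Vegfa and Vegfb were called higher in VtA without LE4, while their family as a whole and the lymphatic genes were divided. Vegfa, the main growth factor of blood vessels, was at 256, 304, 179 and 209 CPM in VtA, against 40.6, 40.7 and 46.1 CPM in LE1 to LE3 and 219 CPM in LE4. Vegfb, a family member high in muscle and heart, was at 78.6, 86.3, 54.7 and 56.8 CPM in VtA, against 14.0, 5.35 and 6.69 CPM in LE1 to LE3 and 97.1 CPM in LE4. Their receptor genes Kdr (1.83 ± 0.39, adjusted p = 0.0107) and Flt1 (1.87 ± 0.49, adjusted p = 0.0192) were also called higher without LE4. Kdr was at 45.8 to 109 CPM in VtA, against 16.9 to 28.3 CPM in LE1 to LE3 and 63.2 CPM in LE4, so LE4 again lay with VtA. Of the 12 tested genes of this family, 4 were called higher and 3 lower without LE4, against 14.2% and 16.5% of all genes. The lower ones were Pgf, Nrp2 and Ccbe1, of which Ccbe1 helps to process the lymphatic growth factor VEGF-C. The Pgf call was lost without LE1 (adjusted p = 0.863), and none of the 3 was called without VtA1. Vegfc itself was at 2.19 to 3.01 CPM in VtA, against 2.15 to 2.84 CPM in LE1 to LE3 and 2.2 CPM in LE4 (adjusted p = 0.993 without LE4).

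Of 25 blood endothelial genes, 16 were higher and 9 lower with all libraries (median 0.32). Without LE4 5 were called higher and 2 lower, against 14.2% and 16.5% of all genes. The number called higher was 3 without LE4 and VtA1, and 8 without LE4 and LE1. Cdh5, the junction protein VE-cadherin, was at 126, 132, 55.2 and 110 CPM in VtA, against 9.06, 34.5 and 48.9 CPM in LE1 to LE3 and 92.0 CPM in LE4. It was called higher without LE4 (1.73 ± 0.55, adjusted p = 0.0366) but not without LE4 and VtA1 (adjusted p = 0.0711), whereas Pecam1, the pan-endothelial surface protein CD31, was not (adjusted p = 0.153). Of 20 lymphatic endothelial genes, 9 were higher and 11 lower (median -0.23), and without LE4 1 was called higher and 3 lower, against 14.2% and 16.5% of all genes. The higher one was Nr2f2, a factor of venous and lymphatic identity, at 12.4 to 16.8 CPM in VtA, against 2.63 to 9.43 CPM in LE1 to LE3 and 16.9 CPM in LE4, a call lost without VtA1 (adjusted p = 0.0702). The lower ones were Pdpn, Stab1 and Foxc2.

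Pdpn, or podoplanin, which fibroblasts and basal keratinocytes also make, was at 5.94, 7.51, 17.0 and 6.68 CPM in VtA, against 63.7, 21.1 and 30 CPM in LE1 to LE3 and 4.77 CPM in LE4. It was called lower without LE4 (-2.06 ± 0.54, adjusted p = 0.0193), a call lost without LE1 (adjusted p = 0.0572). Stab1, a scavenger receptor shared by lymphatic endothelium and macrophages, was at 28.6, 44.3, 35.0 and 35.5 CPM in VtA, against 172, 55.3 and 103 CPM in LE1 to LE3 and 25.9 CPM in LE4. Foxc2, a transcription factor of lymphatic valves, was at 0.172 to 0.532 CPM in VtA, against 0.949 to 3.63 CPM in LE1 to LE3 and 0.338 CPM in LE4. The more specific lymphatic genes did not separate the groups. Prox1, the factor that sets lymphatic identity, was at 3.25, 2.95, 2.87 and 4.67 CPM in VtA, against 0.297, 4.06 and 5.24 CPM in LE1 to LE3 and 2.34 CPM in LE4. Lyve1, a hyaluronan receptor of lymphatic capillaries, was at 6.95 to 10.6 CPM in VtA, against 1.64 to 14.8 CPM in LE1 to LE3 and 7.98 CPM in LE4. Flt4, the receptor for VEGF-C, was at 6.83 to 13.4 CPM in VtA, against 2.47 to 11.9 CPM in LE1 to LE3 and 10.2 CPM in LE4. For Prox1, Lyve1 and Flt4 the sign of the log2 fold change (0.20, 0.07 and 0.30 with all libraries) turned when LE1 was left out. Ccl21a, the chemokine by which lymphatic vessels draw in T cells and dendritic cells, was at 8.96 to 27.3 CPM in VtA, against 25.4 to 51.0 CPM in LE1 to LE3 and 15.5 CPM in LE4, and was not called (adjusted p = 0.0743 without LE4).

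Inflammatory genes gave some of the widest separations between VtA and LE1 to LE3. Of 23 cytokine and chemokine genes tested with all libraries, 22 were lower in VtA; the median log2 fold change was -3.24, or -3.00 with the genes at 0 in VtA set at their bound, against -0.109 over all genes. Without LE4, 17 of 24 were called lower, against 16.5% of all genes, and 14 without LE4 and LE1. Il1b, the inflammasome cytokine (chromosome 2, 129364569 to 129371164), was at 0.252, 0.306, 1.57 and 0.361 CPM in VtA, against 702, 95.2 and 46.0 CPM in LE1 to LE3 and 0.317 CPM in LE4. Its log2 fold change was -8.38 ± 2.05 with all libraries (SE; edgeR adjusted p = 0.288), and -8.80 ± 1.61 without LE4 (adjusted p = 0.00727). Cxcl1, a neutrophil-attracting chemokine, was at 0.201, 0.172, 0.376 and 0.240 CPM in VtA, against 4.33, 1.48 and 1.67 CPM in LE1 to LE3 and 0.148 CPM in LE4. Cxcl3, of the same family, had 0 counts in all VtA libraries and in LE4, against 52.0, 7.67 and 2.44 CPM in LE1 to LE3. Set against a floor of 3 counts in VtA1, the library of smallest effective size, VtA was at least 274-fold lower than the mean of LE1 to LE3 for Cxcl3. Cxcl5 had 0 counts in VtA and LE4, against 47.8, 16.1 and 10.5 CPM in LE1 to LE3, at least 328-fold lower by the same floor. Acod1, which makes itaconate in activated macrophages, had 0 counts in VtA and LE4, against 90.7, 33.4 and 7.59 CPM in LE1 to LE3, at least 581-fold lower. LE1 was the highest library in each, and against the mean of LE2 and LE3 alone the bounds were 66.9-fold for Cxcl3, 176-fold for Cxcl5 and 271-fold for Acod1. In each of these genes LE4 lay within or below the VtA range.

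Cxcl3 and Cxcl1 lie in one chemokine cluster on chromosome 5, and their promoters are shown because both were far lower in VtA than in LE1 to LE3. Each is the 200 bases before the transcript start, from RefSeq on GRCm38.p6, at chr5:90785901-90786100 for Cxcl3 and chr5:90891045-90891244 for Cxcl1, both on the plus strand. Capitals mark TATAAA and the NF-kB type sequence (GGG, any pair of bases, then TTTCC), searched on both strands.

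Cxcl3: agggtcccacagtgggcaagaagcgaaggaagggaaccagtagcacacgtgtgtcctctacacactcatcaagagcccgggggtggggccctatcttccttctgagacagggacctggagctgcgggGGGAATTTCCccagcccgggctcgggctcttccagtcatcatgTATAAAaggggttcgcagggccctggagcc

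Cxcl1: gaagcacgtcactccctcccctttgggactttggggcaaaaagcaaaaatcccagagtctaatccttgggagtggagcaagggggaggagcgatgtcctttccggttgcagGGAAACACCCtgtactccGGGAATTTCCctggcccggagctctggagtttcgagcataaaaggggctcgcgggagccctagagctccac

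The NF-kB type sequence began 73 bases before the start in Cxcl3, and in Cxcl1 71 bases before it, with a further match 89 bases before it on the opposite strand. This motif stood in 1.18% of 32851 promoter windows of the same length, and in 6 of the 16 cytokine and chemokine genes with a window. A gene with several windows was counted if any of them held the motif. TATAAA was in 9.96% of windows and began 30 bases before the start of Cxcl3. The aligned pair were identical at 54.9% of columns. A match describes the letters in these windows, not a bound site.

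Macrophage, T cell and dendritic cell genes were mostly lower in VtA, while B cell genes were divided. Of 25 macrophage and monocyte genes, 22 were lower (median -1.51), and 15 were called lower without LE4, against 16.5% of all genes. The number was 6 without LE4 and VtA1, against 9.25% of all genes, and 8 without LE4 and LE1, against 13.6%. Cd14, the endotoxin co-receptor, was at 1.99, 3.22, 4.22 and 1.79 CPM in VtA, against 305, 28 and 15.2 CPM in LE1 to LE3 and 1.10 CPM in LE4. Of 24 T cell genes, 22 were lower (median -2.58), and without LE4 17 were called lower and 1 higher, against 16.5% and 14.2% of all genes. The number called lower was 11 without LE4 and VtA1, and also 11 without LE4 and LE1, against 9.25% and 13.6% of all genes. Trac, the constant chain of the T cell receptor alpha, was at 0.176, 0.364, 0.682 and 0.275 CPM in VtA, against 9.27, 2.94 and 4.06 CPM in LE1 to LE3 and 0.190 CPM in LE4. Trac was called lower without LE4 (-3.86 ± 0.73, adjusted p = 0.00768), and its groups, LE4 aside, did not overlap. Il4ra, the receptor chain for the Th2 cytokines IL-4 and IL-13, was at 9.52, 15.8, 23.7 and 17.3 CPM in VtA, against 233, 73.8 and 56.1 CPM in LE1 to LE3 and 10.4 CPM in LE4. It was called lower without LE4 (-2.89 ± 0.56, adjusted p = 0.00788). Of 18 B cell and plasma cell genes, 8 were higher and 10 lower (median -0.60). Without LE4 1 was called higher and 1 lower, against 14.2% and 16.5% of all genes.

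S100a8, a calprotectin subunit of neutrophils and of wounded keratinocytes, was at 0.302, 18.4, 0.473 and 0.584 CPM in VtA, against 2950, 345 and 510 CPM in LE1 to LE3 and 0.211 CPM in LE4. VtA2 was the single VtA library above 1 CPM. Of the 16 neutrophil genes tested, 7 were called lower and none higher without LE4, against 16.5% and 14.2% of all genes. Irf8, a factor of dendritic cells and monocytes, was at 3.73 to 8.25 CPM in VtA, against 10.1 to 25.6 CPM in LE1 to LE3 and 6.36 CPM in LE4. Of 19 dendritic cell and MHC class II genes, 12 were called lower and 1 higher without LE4, against 16.5% and 14.2% of all genes. Without LE4 and VtA1, and without LE4 and LE1, 2 were called lower, near the shares of all genes (9.25% and 13.6%). The count for this list therefore rested on which libraries were kept. All 28 interferon response genes were lower with all libraries (median -0.92). Of these, 14 were called lower without LE4, against 16.5% of all genes, with 9 without LE4 and VtA1 and 12 without LE4 and LE1. Isg15, a ubiquitin-like interferon product, was at 1.96, 1.93, 3.16 and 1.36 CPM in VtA, against 51.4, 7.34 and 14.0 CPM in LE1 to LE3 and 0.929 CPM in LE4. Keratinocyte genes were low in the same libraries, as given above.

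**Figure D3:**
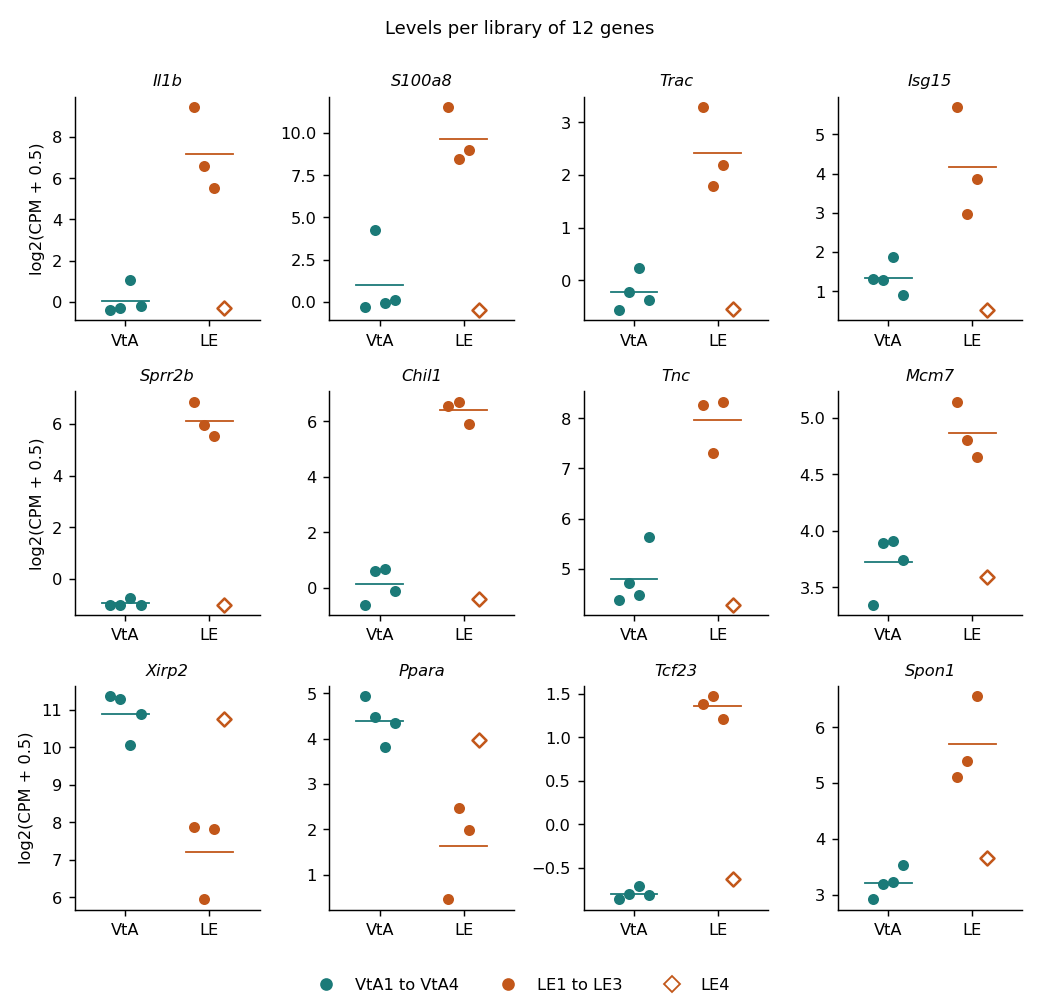
Levels of 12 genes in each library, as log2(CPM + 0.5) on the vertical axis with a scale of its own in each panel; filled dots are VtA1 to VtA4 and LE1 to LE3, the hollow diamond is LE4, and lines are the means of VtA and of LE1 to LE3. In all 12 panels VtA and LE1 to LE3 do not overlap, and LE4 lies within or beyond the VtA values, except in Tcf23 and Spon1, where it lies just outside them on the LE side.

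Genes of resting epidermis were at a graded level across the VtA libraries, and genes of wounded epidermis were low in all of them. Wounded or stressed keratinocytes are known to switch on keratins 6, 16 and 17 and small proline-rich (Sprr) proteins. All 18 tested wound keratinocyte genes were lower in VtA, with a median log2 fold change of -6.59 (-6.47 with the gene at 0 in VtA set at its bound). Without LE4 17 were called lower, against 16.5% of all genes. Of the 24 cornified layer genes, 20 were lower (median -1.66). Of these 24, 4 were called lower without LE4, against 16.5% of all genes, with 7 called without LE4 and VtA1 and 3 without LE4 and LE1. Krt10, a keratin of the differentiated layers, was at 12.3, 400, 2630 and 1710 CPM in VtA, against 2050, 3970 and 3350 CPM in LE1 to LE3 and 6.38 CPM in LE4. Krt16 was at 0.403, 2.2, 48.7 and 17.9 CPM in VtA, against 8030, 1630 and 1640 CPM in LE1 to LE3 and 0 CPM in LE4. VtA3 and VtA4 thus held Krt10 at a level near that of LE1, and little Krt16.

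A ratio within each library shows the same (chosen after the values were seen). Reads of Krt6a, Krt6b and Krt16 together were 4.10%, 1.93%, 3.26% and 3.16% of those of Krt10 in VtA1 to VtA4, against 649%, 158% and 183% in LE1 to LE3. LE4 had 0 such reads beside 302 of Krt10, which allows up to 0.993% (3 counts, counting error only). These ratios are of reads, not scaled by gene length, and reads of the near-identical Krt6a and Krt6b can be exchanged between them, which the sum avoids. Relative to Krt5, a basal keratin, the shares were 2.90%, 6.60% and 4.39% in VtA2 to VtA4, against 592%, 210% and 355% in LE1 to LE3; VtA1 held 20 reads of the wound keratins beside 15 of Krt5.

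Sprr2b, a cornified envelope precursor, was at 0, 0, 0.0974 and 0 CPM in VtA, against 116, 62.2 and 45.7 CPM in LE1 to LE3 and 0 CPM in LE4. Sprr2d was at 0.0755, 0.115, 1.41 and 0.120 CPM in VtA, against 372, 208 and 152 CPM in LE1 to LE3 and 0 CPM in LE4. Sprr2k had 0 counts in all VtA libraries and in LE4, against 28.8, 4.43 and 6.55 CPM in LE1 to LE3, so VtA was at least 176-fold lower than their mean by the floor of 3 counts in VtA1, and at least 72.7-fold lower than the mean of LE2 and LE3. All 3 were called lower without LE4 and also without LE4 and LE1. Sprr2 genes are near-identical copies, so the split of reads between them is uncertain. Their promoters are printed because the copies lay the same way. They are the 200 bases before each start (RefSeq, GRCm38.p6, plus strand) at chr3:92316505-92316704 for Sprr2b, chr3:92338940-92339139 for Sprr2d and chr3:92432382-92432581 for Sprr2k. Capitals mark TATAAA and the AP-1 type sequence TGANTCA, searched on both strands.

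Sprr2b: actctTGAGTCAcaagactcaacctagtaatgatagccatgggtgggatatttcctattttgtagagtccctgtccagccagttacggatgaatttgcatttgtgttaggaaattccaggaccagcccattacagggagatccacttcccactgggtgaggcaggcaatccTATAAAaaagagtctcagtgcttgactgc

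Sprr2d: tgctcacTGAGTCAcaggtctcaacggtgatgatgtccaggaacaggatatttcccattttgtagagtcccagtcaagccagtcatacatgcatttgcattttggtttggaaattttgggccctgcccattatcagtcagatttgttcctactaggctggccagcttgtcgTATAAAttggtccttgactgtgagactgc

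Sprr2k: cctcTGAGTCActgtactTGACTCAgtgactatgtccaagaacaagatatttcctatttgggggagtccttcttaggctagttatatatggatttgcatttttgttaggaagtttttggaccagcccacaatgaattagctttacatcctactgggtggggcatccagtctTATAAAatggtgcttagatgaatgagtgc

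TATAAA began 29 bases before the start in all 3, and TGANTCA began 195, 193 and 196 bases before it, with a second match 182 bases before it in Sprr2k. TGANTCA stood in 5.48% of promoter windows, and in 4 of the 11 wound keratinocyte genes with a window. These were Sprr1a, Sprr1b, Sprr2d and Sprr2h, and no gene of that list outside the Sprr family held the motif. Pairs of these windows were identical at 67.8% to 70.7% of aligned columns.

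Other epithelial genes were among those with the smallest p. Degs2, which makes the phytoceramides of the skin barrier, was at 0.176, 0.172, 0.473 and 0 CPM in VtA, against 42.1, 18.4 and 13.0 CPM in LE1 to LE3 and 0.380 CPM in LE4. Chil1, a chitinase-like protein of inflamed tissue, was at 0.151, 1.02, 1.11 and 0.429 CPM in VtA, against 94.3, 105 and 59.8 CPM in LE1 to LE3 and 0.253 CPM in LE4. Slc7a11, the cystine importer, was at 0.151, 0.153, 0.723 and 0.532 CPM in VtA, against 66.9, 28.3 and 25.1 CPM in LE1 to LE3 and 0.253 CPM in LE4. LE4 was inside the VtA range in each. Upp1, Fetub, Pla2g4d, Tmprss11b and Csta3 had the same arrangement and the same adjusted p in edgeR (0.288 with all libraries, 0.00607 without LE4). Hair follicle genes were lower in 18 of 18 (median -7.86), and the number called lower without LE4 was 10, against 16.5% of all genes. Of these genes 1 was called lower when VtA1 was also left out, against 9.25% of all genes. Their share of reads was 1.07e-05% to 0.00889% in VtA, against 0.00132% to 1.95% in LE1 to LE3 and 5.71e-06% in LE4, so LE1 to LE3 themselves differed widely.

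Matrix and growth genes were lower in VtA than in LE1 to LE3. Collagen and other matrix genes were lower in 22 of 24 (median -1.31), and 12 were called lower without LE4, against 16.5% of all genes. The number was 3 without LE4 and VtA1, near the 9.25% of all genes, and 9 without LE4 and LE1, against 13.6%. Tnc, the wound matrix protein tenascin-C, was at 20.2, 26, 21.9 and 49.4 CPM in VtA, against 308, 158 and 322 CPM in LE1 to LE3 and 18.9 CPM in LE4. Col1a1 was at 196, 618, 1080 and 919 CPM in VtA, against 2390, 1640 and 5250 CPM in LE1 to LE3 and 198 CPM in LE4. Both were called lower without LE4, Tnc at -3.20 ± 0.61 (adjusted p = 0.00759) and Col1a1 at -2.17 ± 0.74 (adjusted p = 0.0447), of which the Col1a1 call was lost without VtA1 (adjusted p = 0.0880) and without LE1 (adjusted p = 0.0506).

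Of 19 matrix proteases and inhibitors, 17 were lower (median -1.71) and 9 were called lower without LE4, against 16.5% of all genes. Timp1, an inhibitor of metalloproteinases, was at 0.630, 2.36, 3.31 and 1.32 CPM in VtA, against 459, 17.8 and 26.4 CPM in LE1 to LE3 and 0.444 CPM in LE4. Hyaluronan, the water-binding polymer of the interstitium, is made by Has enzymes and broken down with the help of Cemip. All 11 hyaluronan genes were lower (median -1.14), and 4 were called lower without LE4, against 16.5% of all genes, but 2 without LE4 and VtA1. Cemip was at 0, 0, 0.598 and 0.395 CPM in VtA, against 5.34, 8.97 and 9.23 CPM in LE1 to LE3 and 0.106 CPM in LE4, and was called lower without LE4 (-4.96 ± 1.11, adjusted p = 0.0118). The synthases Has1 (adjusted p = 0.0666), Has2 (0.0558) and Has3 (0.738) were not called. TGF-beta signalling genes were divided, with 3 called higher and 5 lower of 16 without LE4, against 14.2% and 16.5% of all genes, and 3 lower without LE4 and VtA1. Tgfb1, the fibrotic cytokine, was at 5.11, 9.85, 11.3 and 8.34 CPM in VtA, against 33.4, 18.2 and 16.2 CPM in LE1 to LE3 and 5.32 CPM in LE4 (-1.41 ± 0.37 without LE4, adjusted p = 0.0193).

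Cell cycle genes were lower in 25 of 27 (median -1.75), and 19 were called lower without LE4, against 16.5% of all genes. Mcm7, a subunit of the replicative helicase, was at 9.64, 14.3, 14.5 and 12.9 CPM in VtA, against 34.9, 27.4 and 24.6 CPM in LE1 to LE3 and 11.5 CPM in LE4. Runx1, a factor of blood cells and of regenerating hair and muscle, was at 2.67, 6.93, 7.01 and 7.54 CPM in VtA, against 30.8, 52.2 and 31.6 CPM in LE1 to LE3 and 2.30 CPM in LE4. Mki67, the proliferation antigen, was at 1.86, 12.5, 29.4 and 36.7 CPM in VtA, against 128, 95.3 and 80.5 CPM in LE1 to LE3 and 0.697 CPM in LE4. The VtA libraries with the most Mki67, VtA3 and VtA4, were those with the most keratinocyte reads.

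Most genes of the fast sarcomere and of oxidative metabolism were higher in VtA than in LE. Of 25 fast sarcomere genes, 24 were higher (median 1.2, against -0.109 over all genes). Without LE4 15 were called higher, against 14.2% of all genes. The number was 13 without LE4 and VtA1 and 25 without LE4 and LE1, against 10.4% and 18.4% of all genes. Xirp2, an actin-binding protein of the sarcomere's edge, was at 2640, 2510, 1060 and 1890 CPM in VtA, against 233, 60.9 and 224 CPM in LE1 to LE3 and 1730 CPM in LE4. Ryr1, the calcium release channel, was at 3730, 6810, 1750 and 5120 CPM in VtA, against 338, 119 and 435 CPM in LE1 to LE3 and 3940 CPM in LE4. Hk2, the first enzyme of muscle glycolysis, was at 383, 427, 222 and 323 CPM in VtA, against 69.0, 44.5 and 51.1 CPM in LE1 to LE3 and 370 CPM in LE4. LE4 lay within the VtA range in all 3, each named for the smallest p of its list in the fit that holds LE4. Over the genes called without LE4, LE4 lay beyond every VtA library in 6 of 15 for the fast sarcomere. The same held in 8 of 13 for calcium handling and 11 of 14 for glycolysis. Calcium handling genes were higher in 15 of 17, glycolysis genes in 18 of 18 and neuromuscular junction genes in 10 of 12. Without LE4, 13, 14 and 5 of these were called higher and 0 lower, against 14.2% and 16.5% of all genes. The regeneration list and the atrophy and stress list were divided. Of 14 muscle regeneration genes, 6 were higher and 8 lower (median -0.51). Without LE4, 4 were called higher and 1 lower, against 14.2% and 16.5% of all genes. Without LE4 and LE1, 7 were called higher and 1 lower, against 18.4% and 13.6%, and the list median turned to 2.16. Of 14 muscle atrophy and stress genes, 7 were higher and 7 lower (median 0.09). Without LE4 5 were called higher and 3 lower, against 14.2% and 16.5% of all genes. Without LE4 and LE1 5 were called higher and 0 lower, against 18.4% and 13.6%.

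Of 20 fatty acid oxidation genes, 19 were higher (median 1.15) and 17 were called higher without LE4, against 14.2% of all genes. Ppara, the nuclear receptor that drives this pathway, was at 30.1, 21.6, 13.7 and 19.9 CPM in VtA, against 0.870, 5.02 and 3.46 CPM in LE1 to LE3 and 15.3 CPM in LE4. Esrrg, a nuclear receptor of oxidative muscle, was at 46.2, 25.1, 10.9 and 28 CPM in VtA, against 0.277, 0.984 and 0.691 CPM in LE1 to LE3 and 21.5 CPM in LE4, and was called higher without LE4 (5.34 ± 0.73, adjusted p = 0.00607). Of 28 nuclear genes of the respiratory chain, 26 were higher (median 0.75). Without LE4 15 were called higher, against 14.2% of all genes, with 12 without LE4 and VtA1 and 25 without LE4 and LE1. Slow muscle genes were less uniform. Myh7, the slow myosin heavy chain, was at 498, 48.3, 113 and 228 CPM in VtA, against 5.28, 2.40 and 3.65 CPM in LE1 to LE3 and 125 CPM in LE4. Of 11 slow muscle genes, 4 were called higher without LE4, against 14.2% of all genes. Fat genes did not separate as a list, with 2 of 12 called higher and 0 lower without LE4, against 14.2% and 16.5% of all genes. One of these, Plin4, a lipid droplet coat protein also present in muscle, was at 190, 276, 109 and 201 CPM in VtA, against 29.8, 37.1 and 35.0 CPM in LE1 to LE3 and 232 CPM in LE4. The share of reads in fast sarcomere genes moved with all of these, and its part in them was not tested.

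**Figure D4:**
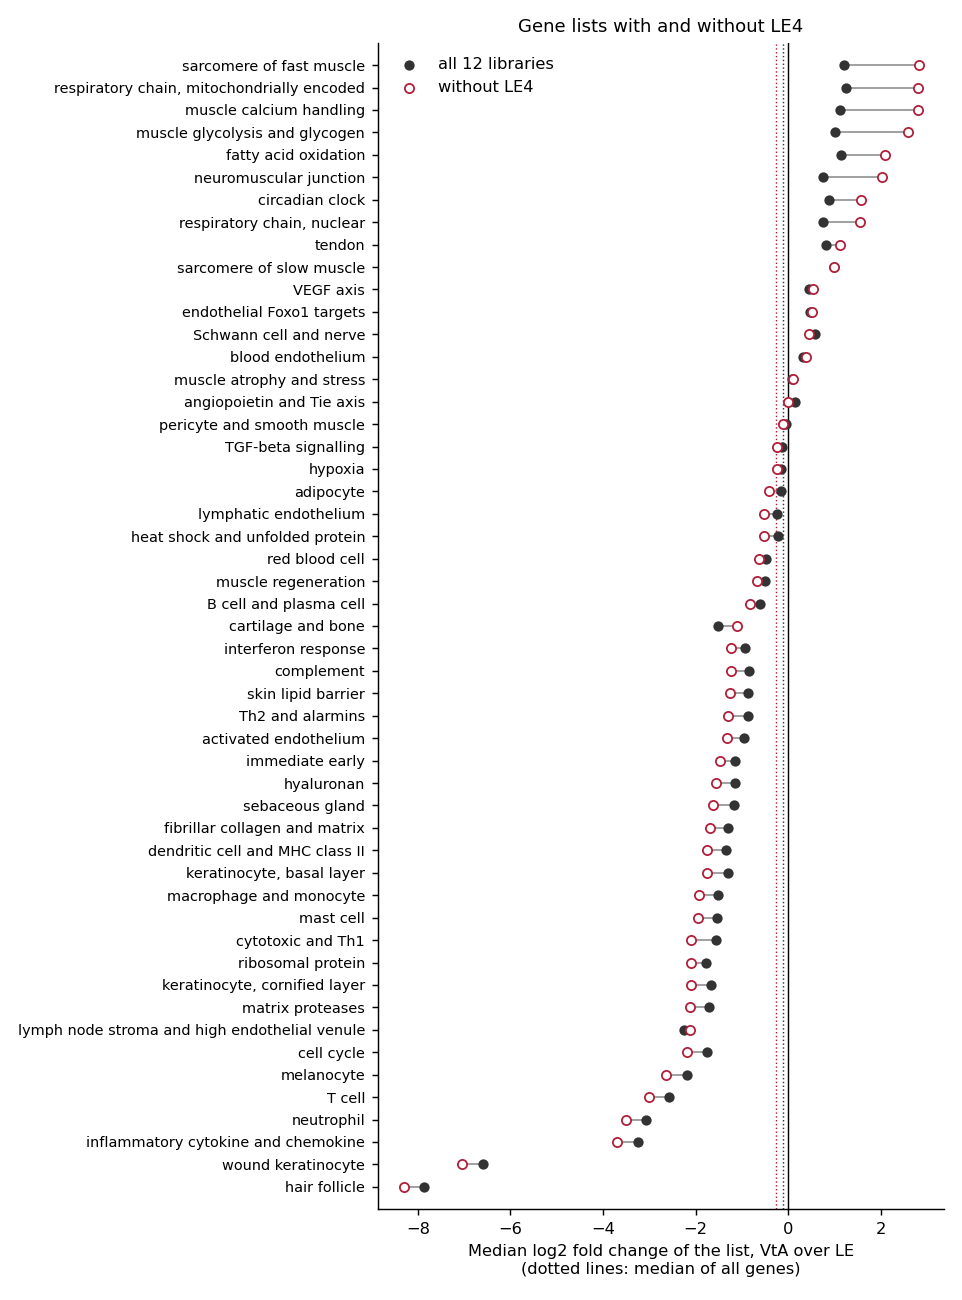
Median log2 fold change of VtA over LE for each of 51 gene lists (rows), with all 12 libraries in the fit (filled) and without LE4 (hollow); dotted lines are the medians over all genes, -0.109 and -0.269. The fast sarcomere, muscle calcium handling, glycolysis, fatty acid oxidation and clock lists lie to the right, and the cytokine, wound keratinocyte and hair follicle lists to the left; without LE4 the fast sarcomere, calcium handling, glycolysis and mitochondrially encoded lists lie furthest to the right, while the muscle regeneration list lies at -0.51 and -0.68.

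Circadian clock genes were higher in VtA than in LE1 to LE3. The clock runs on Arntl and Clock, which bind E-boxes and switch on their own repressors, the Per, Cry and Nr1d genes. With all libraries, 15 of 15 genes were higher in VtA, with a median of 0.88. Without LE4 10 were called higher, against 14.2% of all genes. The number was 8 without LE4 and VtA1 and 7 without LE4 and LE1, against 10.4% and 18.4% of all genes. Cry1, a repressor (chromosome 10, 85131700 to 85185054), was at 18.1, 15.9, 14.4 and 15.1 CPM in VtA, against 5.26, 7.48 and 7.13 CPM in LE1 to LE3 and 12.9 CPM in LE4. Its groups did not overlap, with a log2 fold change of 0.95 ± 0.31 (SE; edgeR adjusted p = 0.288), and 1.22 ± 0.27 without LE4 (adjusted p = 0.0117). Nr1d1, the repressor REV-ERB alpha, was at 192, 260, 115 and 220 CPM in VtA, against 38.4, 36.4 and 36.2 CPM in LE1 to LE3 and 274 CPM in LE4. Bhlhe41, a repressor that also binds E-boxes, was at 47.2, 68.9, 42.5 and 65.3 CPM in VtA, against 10.9, 10.2 and 12.7 CPM in LE1 to LE3 and 91.6 CPM in LE4. LE4 exceeded all VtA libraries for Nr1d1 and Bhlhe41 and was under all of them for Cry1.

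Arntl, an activator, was at 31.8, 27.3, 29.1 and 47.3 CPM in VtA, against 5, 18.7 and 21.0 CPM in LE1 to LE3 and 28.8 CPM in LE4, and was not called without LE4 (adjusted p = 0.0814). Clock (adjusted p = 0.647), Npas2 (0.482) and Per1 (0.515) were not called either. Among repressors and output genes, Per2 (2.24 ± 0.62), Dbp (2.21 ± 0.65), Tef (2.19 ± 0.56) and Nr1d2 (2.0 ± 0.42) were called higher without LE4, of which Per2 missed the threshold without LE1 (adjusted p = 0.0510). The time of day at which tissue was taken is not given in the sources used here, and muscle share moved with these genes; the part of either was not tested.

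**Figure D5:**
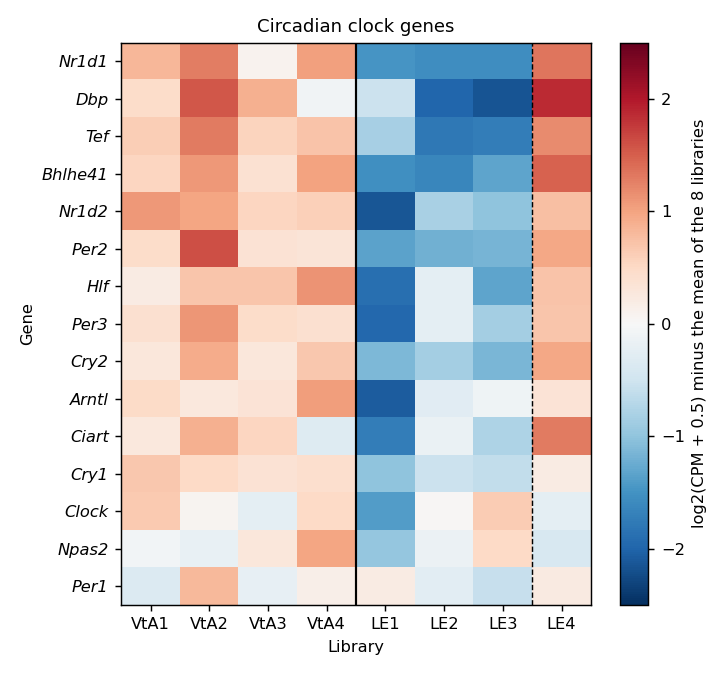
Heat map of 15 circadian clock genes (rows) in the 8 libraries (columns, VtA1 to VtA4, then LE1 to LE3 and LE4), coloured by log2(CPM + 0.5) minus the gene's mean over the 8 libraries. LE1 to LE3 are low in most rows, and LE4 resembles the VtA libraries, with Nr1d1 at 274 CPM against 115 to 260 CPM in VtA.

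The promoters of Cry1 and Bhlhe41 are shown as a pair of clock genes that hold an E-box. Bhlhe41 was picked after its values were seen. They are the 200 bases before each start (RefSeq, GRCm38.p6), both on the minus strand, at chr10:85185055-85185254 for Cry1 and chr6:145865421-145865620 for Bhlhe41. Capitals mark CACGTG, which reads the same on both strands.

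Cry1: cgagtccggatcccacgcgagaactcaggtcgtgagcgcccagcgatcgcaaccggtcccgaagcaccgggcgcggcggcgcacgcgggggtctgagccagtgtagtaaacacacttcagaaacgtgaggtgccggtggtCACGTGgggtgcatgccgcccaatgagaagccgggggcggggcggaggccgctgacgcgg

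Bhlhe41: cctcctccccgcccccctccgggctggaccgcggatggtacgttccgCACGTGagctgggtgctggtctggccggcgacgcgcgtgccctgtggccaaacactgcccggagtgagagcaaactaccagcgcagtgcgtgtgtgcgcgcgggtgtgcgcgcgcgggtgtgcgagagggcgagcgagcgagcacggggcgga

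CACGTG began 60 bases before the start of Cry1 and 153 bases before that of Bhlhe41. It stood in 5.26% of promoter windows and in 5 of the 14 clock genes with a window, where a gene with several windows was counted if any of them matched. The other motifs named above were in none of those 14.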

How the data were processed

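RNA of whole hindlimb tissue was sequenced in 12 libraries, made with a stranded TruSeq mRNA kit per the labels' protocols. Per the submitters' processing notes, the tools were HISAT2 2.1.0, StringTie 2.1.3b, bcl2fastq 2.20.0 and Trimmomatic; the notes name GRCh38 and mm10 without a role. Whether counting used strand is not stated in the sources at hand. The authors deposited 1 table with a read count, an FPKM and a TPM value per gene and library; the counts were whole numbers and were used as deposited, the FPKM and TPM values were not used. Of 45777 genes, 19740 passed edgeR's expression filter.

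Counts were fitted with edgeR 4.0.16 (R 4.3.3; TMM normalization, quasi-likelihood test, 2-sided, group means of all 12 libraries), with contrast VtA minus LE and Benjamini-Hochberg adjustment over all genes tested. The biological coefficient of variation was 0.686. Levels are CPM on TMM-adjusted library sizes. The test was checked on simulated data. There the libraries of a group shared the same mean per gene, and none was set apart as LE4 is. That check therefore does not bear on the difference between the fits with and without LE4. Alternatives were each library left out, LE4 with VtA1, LE4 with LE1 (added after seeing the data), DESeq2 1.42.0 and its size factors, limma-voom 3.58.1, no filter, a robust fit, the 8 libraries alone, a replicate block, and keratinocyte or muscle share as covariate. Of 843 list symbols in 52 lists, 837 were found.

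The comparison, lists and tests were chosen with earlier results of these data known. Genes were named by rule: the 10 smallest p, the largest differences without overlap of all 8 libraries, the largest differences called without LE4, 12 core genes, and 1 gene per list with the smallest p. Other genes (Clip4, Flvcr1 and those listed with them, Ptprb, Vegfa, Vegfb, Flt1, Nr2f2, Foxc2, the VEGF genes called lower, keratins, Col1a1, Timp1, Tgfb1, the Has genes, Mki67, and clock genes besides Cry1) were named after their values were seen. Some genes that the rule names are not reported here. Gene positions and promoters come from RefSeq on GRCm38.p6. Floors cover counting error only. Each ± is a standard error taken from the quasi-likelihood test, which includes the spread between libraries.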

Additional observations from a re-analysis of the deposited data

Results flagged for a closer look

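Each value here is 1 library that lay far from the other 3 of its group by Dixon's 95% criterion, taken on log2(CPM + 0.5) for 103 named genes and on the mean log2 CPM of the list for 52 lists. Of 310 groups of 4 tested, 47 had such a library, 26 of them LE4 and 4 LE1. Chance alone flags about 1 in 20 groups, and genes and lists overlap. Some of the genes were named because they were called without LE4, so the count of LE4 flags cannot be judged by that rate.

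LE4 stood below the other LE libraries for Tcf23 (0.148 CPM), Chil1 (0.253 CPM), Sprr2b, Sprr2d and Rptn (0 CPM each), Dgat2l6 (1.82 CPM) and Runx2 (0.845 CPM). Rptn encodes repetin of the cornified envelope and Runx2 a bone factor. LE4 stood above them for Cers1 (48.9 CPM), Myh6 (7.03 CPM), Esrrb (5.41 CPM), Tigd4 (17.7 CPM), Slc15a5 (9.55 CPM) and Plin4 (232 CPM). Of the list scores, LE4 was lowest of its group for basal keratinocytes (1.63), cornified layer (-2.16), wound keratinocytes (-4.09), sebaceous gland (-1.03), skin lipid barrier (-0.721), cartilage and bone (-0.470), T cells (-2.75), cytotoxic and Th1 genes (-4.01), Th2 genes and alarmins (0.369), mast cells (-0.189), cell cycle (-0.260) and immediate early genes (1.89). It was highest for fatty acid oxidation (7.58).

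LE1 stood above the other LE libraries for the pseudogenes Rpl19-ps7 (8.40 CPM), Rpl6l (56.4 CPM) and Mif-ps (6.90 CPM). It also did so for the antisense transcript Epb41l4aos (47.7 CPM). LE3 stood apart for the angiopoietin and Tie list, at a score of 4.42.

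In VtA, VtA3 stood apart for Csta3 (0.0278 CPM), Tmprss11b (0.0556 CPM), Pla2g4d (0.0417 CPM), Sprr2b (0.0974 CPM), Mmp10 (0.139 CPM), Sprr2d (1.41 CPM) and Il1b (1.57 CPM), all above the other VtA libraries and most at a few counts. It was below them for Dst (291 CPM) and Myh11 (20 CPM). VtA4 had the only counts of Tchhl1 (0.0343 CPM), and VtA1 the lowest Runx1 (2.67 CPM) and the lowest cartilage and bone score (-0.378). VtA2 stood apart for S100a8 (18.4 CPM), Blk (0.575 CPM), Angpt4 (0.230 CPM) and the red blood cell list (a score of 5.85).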

How the results depend on the processing

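With edgeR no gene was called under DESeq2 size factors, without the filter on low counts, with the 8 libraries alone, in the robust fit, or with keratinocyte or muscle share as a covariate. With keratinocyte share as the covariate the median of all genes was 0.15 and, at an unadjusted p under 0.05, 2257 genes were higher and 425 lower; with muscle share the median was 0.09, with 273 higher and 1424 lower. DESeq2 called 843 genes, and limma-voom with sample weights, which were low for LE4 (0.104) and LE1 (0.0983), called 10639. Leaving out 1 library gave 0 to 6288 called genes; only leaving out LE4 gave any. Leaving out LE4 and VtA1 gave 4004, and LE4 and LE1 6748, of which 4520 were among the 6288; the cause was not tested. Of 105 named genes, 85 came past the threshold without LE4, 76 without LE4 and VtA1, and 76 without LE4 and LE1. Over all genes, 30.8%, 19.7% and 32.1% were called in these fits. Some of the named genes were chosen because they were called without LE4 or had the smallest p. Their counts were therefore partly fixed by that choice. The median of all genes was -0.2022 with DESeq2 size factors, against -0.109 with TMM.

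The replicate numbers did not pair VtA with LE (correlations of deviations -0.221, -0.187, 0.465 and -0.431), and only number 3 of the 4 was above 0.1. With the replicate block, 0 genes were called, and of those at an unadjusted p under 0.05, 2193 were higher and 1070 lower, against 600 and 2656 without the block.

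The sign turned for 6 named genes, none of them called with all libraries. Prox1 gave -0.34 with limma-voom and -0.49 without LE4 and LE1, with -0.18 to 0.58 over single libraries left out. Lyve1 gave -0.0130 with DESeq2 size factors, -0.0161 with DESeq2, -0.47 with limma-voom and -0.44 without LE4 and LE1, with -0.27 to 0.53 over single libraries. Flt4 gave -0.0515 without LE4 and LE1, with -0.00478 to 0.48. Vegfc gave -0.00748 with DESeq2 size factors and -0.00367 with DESeq2, with -0.0277 to 0.13. Ndufa2 gave 0.62 with limma-voom and 1.09 without LE4 and LE1, with -2.28 to 0.40. Hbb-bs gave 0.95 and 1.15 in those settings, with -1.16 to 0.57; the cause was not tested in any.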

Other observations

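VtA2 held more transcripts of blood-forming cells than the other VtA libraries (genes picked after their values were seen). Ngp, a granule protein made by neutrophil precursors in marrow, was at 0.0755, 30.4, 0.306 and 0.137 CPM in VtA1 to VtA4, against 2.89, 2.90 and 0.506 CPM in LE1 to LE3 and 0 CPM in LE4. Ltf, lactoferrin of the secondary granules, was at 0.101, 20.8, 0.111 and 0.0343 CPM in VtA, against 6.35, 1.87 and 0.681 CPM in LE1 to LE3 and 0 CPM in LE4. Mpo, the primary granule peroxidase, was at 0, 5.31, 0.0556 and 0 CPM in VtA, against 2.73, 0.172 and 0.311 CPM in LE1 to LE3 and 0 CPM in LE4. VtA2 was also the VtA library with the most Alas2, the erythroid heme synthase, at 10.7 CPM against 1.67 to 3.4 CPM in the other VtA libraries and 1.47 to 6.34 CPM over LE. None of Ngp, Ltf and Mpo was called with or without LE4.

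Tendon genes varied with single libraries. Fmod, a collagen-binding proteoglycan of tendon, was at 253, 265, 144 and 982 CPM in VtA, against 123, 9.05 and 15.5 CPM in LE1 to LE3 and 356 CPM in LE4. Chad, a cartilage and tendon matrix protein, was at 23.6, 21.0, 10.6 and 150 CPM in VtA, against 4.39, 0.213 and 0.292 CPM in LE1 to LE3 and 66.2 CPM in LE4. VtA4 was the highest library for both, and without LE4 3 of 10 tendon genes were called higher and 1 lower, against 14.2% and 16.5% of all genes. The number called higher was 2 without LE4 and VtA1, and 6 without LE4 and LE1.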
